A study of Mus musculus with 16 samples.

Results

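The Dppa2 and Dppa4 locus is a pair of neighbouring genes on mouse chromosome 16 with the sequence around them. The members were the 2 genes by name, of 21631 protein-coding genes on chromosomes 1 to 19 and X in the RefSeq table of GRCm38.p6. Dppa4 (gene ID 73693) spans positions 48283735 to 48294292 and Dppa2 (gene ID 73703) spans 48310274 to 48319513, with 15981 bp between them. The window reached from 100 kb before the first gene end to 100 kb after the last, that is from 48183735 to 48419513, or 235779 bp. The locus was chosen from the width and number of its peaks in these same lists, so its values are descriptions and carry no test.

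DPPA2 and DPPA4 are small nuclear proteins that share a DNA-binding SAP domain and work as a pair. They are made in the early embryo, in germ cells and in pluripotent stem cells. In mouse embryonic stem cells they are known to switch on Dux and, through it, the Zscan4 genes and other genes of the first wave of zygotic transcription, and to keep developmental promoters with both active and repressive marks free of DNA methylation. H3K27ac, an acetylation of histone H3, is found at active promoters and enhancers. H3K4me3, a methylation of histone H3, is found mainly at promoters and forms unusually wide domains in oocytes and early embryos. HDAC1 is a deacetylase, which takes acetyl groups off histones.

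Both marks had been profiled by native chromatin immunoprecipitation with low input in mouse late 2-cell embryos, 36 h after fertilization, freed of the zona pellucida. Control embryos (water) had received H2O as zygotes, and mutant embryos had received Hdac1 mutant mRNA as zygotes. The labels give neither the mutation nor the mouse strain nor the number of embryos, and the embryos' own Hdac1 gene was not described as altered. Each of the 4 combinations of mark and injection had 2 immunoprecipitation libraries and 2 input libraries, 16 in all, but a single deposited peak list. There is therefore no replicate error for any value below, no test of the conditions, and the sequencing depth is unknown. A peak list gives positions without heights, so a change below means that a called interval is present, absent, longer or shorter.

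On chromosomes 1 to 19 and X the lists held between 77349 and 122459 peaks and covered between 9.35% and 10.6% of the sequence. Of 8 genes used as markers of the 2-cell stage, 8 had an H3K27ac peak within 2 kb of a gene end in both conditions, against 55.5% of all coding genes in water and 58.7% in mutant embryos. An H3K4me3 peak was found at 6 of them in water and 8 in mutant embryos, against 75.6% and 73.7%. Of 5 genes of differentiated tissues, the number with a peak was 0 in 3 of the lists, and 1 in the mutant H3K27ac list. No 2 peaks were closer than 681 bp in the water and 602 bp in the mutant H3K27ac list, or than 684 and 734 bp in the H3K4me3 lists. This limit differs between the lists and bears on every count of peaks below.

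**Figure D1:**
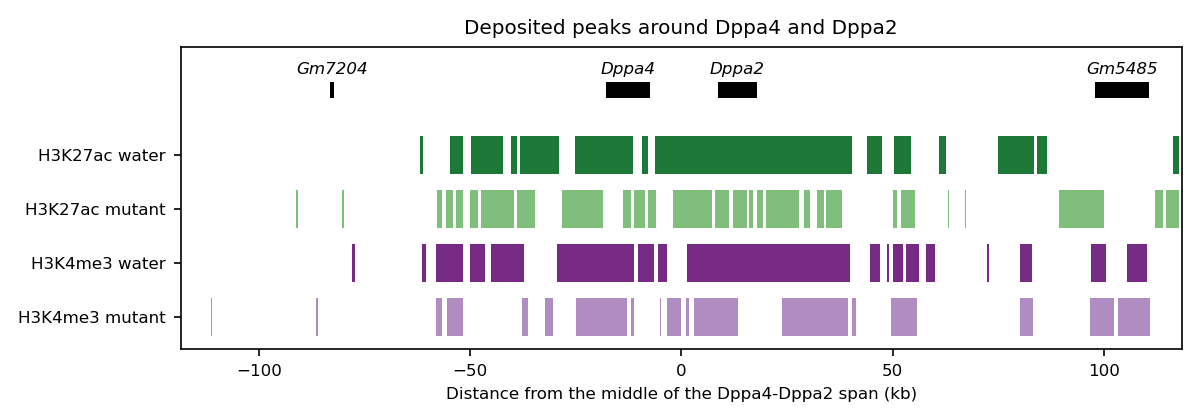
Deposited peaks of the 4 lists (coloured bars) and the annotated genes (black bars) against the distance from the middle of the Dppa4 to Dppa2 span, in kb. In water embryos a single wide peak of each mark covers all of Dppa2, and in mutant embryos H3K27ac there is cut into short pieces while H3K4me3 has a gap of 10478 bp over the end of Dppa2.

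In water embryos the pair of genes lay in a dense block of both marks. H3K27ac covered 105288 bp of the window in 14 peaks, or 44.7%, and H3K4me3 covered 104233 bp in 18 peaks, or 44.2%. Of 11151 windows of this length laid end to end along the chromosomes, 592 held at least as much water H3K27ac and 456 at least as much water H3K4me3, and the median window was covered for 2.57% and 3.62%. In mutant embryos H3K27ac covered 88410 bp in 28 peaks, or 37.5% of the window, and H3K4me3 covered 75789 bp in 18 peaks, or 32.1%. The number of H3K27ac peaks was thus 2 times as high in mutant embryos on 0.840 times the covered length, whereas H3K4me3 had the same number of peaks on 0.727 times the covered length. Much of this rise was shared by the whole list. Over chromosomes 1 to 19 and X, H3K27ac peaks numbered 77349 in water and 122459 in mutant embryos. That is 1.58 times as many on 0.977 times the covered length. For H3K4me3 these ratios were 0.988 and 1.09. The ratio of H3K27ac peak numbers in the window rests on short gaps. With peaks less than 1 kb apart merged in all lists, the window held 12 water and 14 mutant H3K27ac peaks. It held 13 and 18 under common limits, that is with gaps below 750 bp closed and any peak under 200 bp dropped.

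The block was centred on the genes and open to the side of Dppa2. From Dppa4 to Dppa2, water H3K27ac covered 89.5% of the sequence and water H3K4me3 81.7%. In the 100 kb before Dppa4 these values were 29.4% and 30.9%, and in the 100 kb after Dppa2 43.8% and 44.1%. Further out the sides differed. Between 100 and 200 kb before Dppa4 the water lists covered 2.05% (H3K27ac) and 0% (H3K4me3), and the mutant lists 0.172% and 0%. Between 100 and 200 kb after Dppa2, towards Morc1, a germ-cell gene that starts 111723 bp after Dppa2, H3K27ac covered 38.5% in water and 34.6% in mutant embryos, and H3K4me3 13.7% and 15.1%. The edge of the window there cuts through a mutant H3K27ac peak of 4366 bp, and the last water H3K27ac peak inside it measured 1383 bp.

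**Figure D2:**
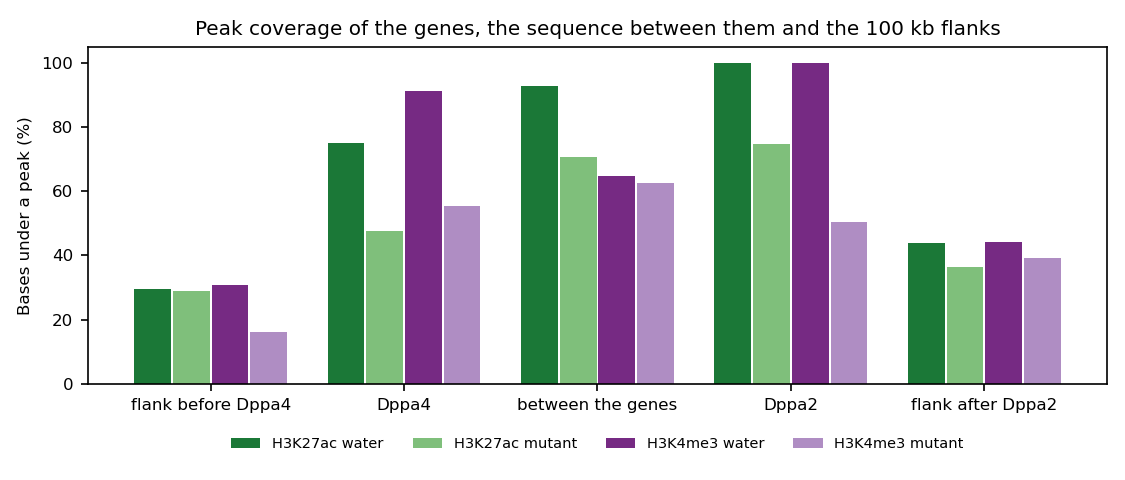
Share of bases under a peak, in percent, for the 100 kb flanks, both genes and the sequence between them, with a bar for each of the 4 lists and no error bars because each group has a single list. Dppa2 is covered for 100% by both marks in water and for 74.9% by H3K27ac and 50.4% by H3K4me3 in mutant embryos, and the flank before Dppa4 differs mainly in H3K4me3, with 30.9% and 16.2%.

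Dppa2 lay whole inside a single domain of each mark in water embryos. The H3K27ac domain spanned 48295425 to 48342107, or 46683 bp, and ranked 97 by width among 77349 peaks of its list. The H3K4me3 domain spanned 48302905 to 48341536, or 38632 bp, and ranked 73 among 86781. The H3K4me3 domain lay inside the H3K27ac domain for all of its length. Both began before Dppa2 and ended more than 20 kb after it, so most of their length was outside the gene.

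In mutant embryos the bases of the H3K27ac domain were largely still marked but in short pieces. The domain was overlapped by 10 mutant peaks of 878 to 9238 bp, which covered 32901 bp or 70.5% of it. The widest piece held 19.8% of the domain. The 9 gaps between the pieces measured 4093, 614, 748, 687, 939, 727, 1231, 1553 and 653 bp in order along the chromosome. Of these gaps 6 were shorter than 1 kb, and those of 614 and 653 bp were shorter than any gap of the water list. The long gap of 4093 bp lay between Dppa4 and Dppa2, and 3 short ones touched Dppa2. Peaks less than 1 kb apart, when merged in all lists, left 4 mutant peaks over the domain in place of 10, and common limits on gap and width left 5.

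Splitting of this kind was the rule among wide H3K27ac domains. Of 1503 water H3K27ac peaks of 20 kb or wider, 92.8% were overlapped by 2 or more mutant peaks, with a median of 4. In the other direction, 68.4% of 209 mutant H3K27ac peaks of that width were overlapped by 2 or more water peaks, with a median of 2. At least 10 mutant peaks lay over 1.20% of the 1503 water peaks, the Dppa2 domain included. The number of pieces grew with the width of the domain. Among 177 domains of 40 kb or wider, a limit chosen after the data were seen, the median was 6, and 9.60% had at least 10 pieces. The Dppa2 domain had 2.14 pieces per 10 kb against a median of 1.28 among domains of 20 kb or wider. These counts use the lists as deposited. Merging below 1 kb left the Dppa2 domain 4 pieces and common limits 5, but the class was not recounted under these settings. Whether the domain was more split than others once short gaps are closed is therefore unknown. The 70.5% of its bases that remained compare with a median of 60.4% (quartiles 41.7% and 75.1%) in that class, so more of it was kept than of the median domain.

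The H3K4me3 domain over Dppa2 differed in another way. It was overlapped by 3 mutant peaks of 723, 10196 and 15762 bp, which covered 26609 bp or 68.9% of it. The gaps measured 1183 and 10478 bp. The second ran from 48314935 to 48325412 and took in the last 4579 bp of Dppa2 as annotated by position. None of the gaps was shorter than 1 kb, and merging of peaks less than 1 kb apart left the number at 3. Of 784 water H3K4me3 peaks of 20 kb or wider, 79.3% were overlapped by 2 or more mutant peaks and 45.0% by 3 or more. In the other direction, 80.5% of 911 mutant H3K4me3 peaks of that width were overlapped by 2 or more water peaks. The median share kept among the 784 water domains was 85.7% (quartiles 71.4% and 94.0%), and 78.2% of the domains kept at least as much as the one over Dppa2. Among 83 water H3K4me3 domains of 38 kb or wider, a limit set just below the width of this domain after the data were seen, 89.2% kept at least as much. The kept share of H3K4me3 bases over Dppa2 was therefore smaller than in most domains of its width, and its number of pieces was below the median of 4 in that class.

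**Figure D3:**
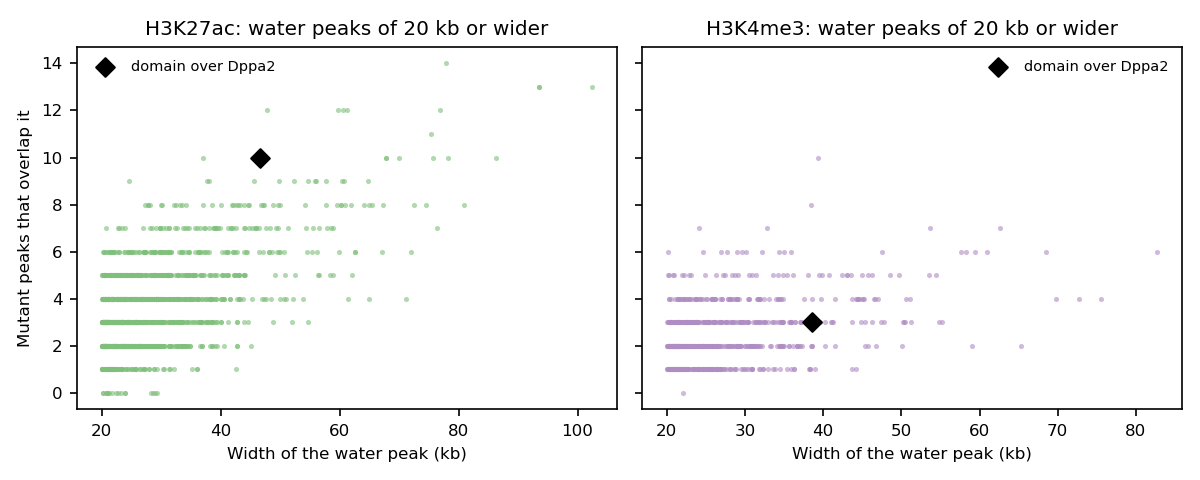
Number of mutant peaks that overlap each water peak of 20 kb or wider, against the width of the water peak in kb, for H3K27ac (1503 peaks) and H3K4me3 (784 peaks). The domain over Dppa2 (black diamond) has 10 mutant H3K27ac peaks, above the median of 4, and 3 mutant H3K4me3 peaks, near the median of 2.

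Both marks were separated from each other at places within the genes. In the H3K4me3 gap of 10478 bp over the end of Dppa2, mutant H3K27ac peaks covered 8125 bp, or 77.5%. The reverse was seen at Dppa4, where a mutant H3K27ac gap of 4676 bp took in the first 4055 bp of the gene by position and lay wholly under a mutant H3K4me3 peak. In Dppa2 the bases under both marks numbered 9240, all of the gene, in water and 3913 in mutant embryos. In Dppa4 they numbered 7941 in water and 1092 in mutant embryos. Between the genes they numbered 9573 and 7606.

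At Dppa4 itself, water H3K27ac covered 75.2% of the gene with peaks of 13866 and 1405 bp, and mutant H3K27ac covered 47.7% with peaks of 1982, 2593 and 1788 bp. Only 34.0% of the water H3K27ac bases of Dppa4 were also marked in mutant embryos, against 74.9% at Dppa2. Part of the mutant coverage of Dppa4 lay where water embryos had a gap, as 53.6% of the mutant bases were under a water peak. Water H3K4me3 covered 91.3% of Dppa4 with peaks of 18330 and 3707 bp, and mutant H3K4me3 55.4% with peaks of 11909 and 864 bp. The 3707 bp water peak, at the last end of Dppa4, was overlapped by no mutant H3K4me3 peak. Windows of 2 kb at that end accordingly held 2 water and 0 mutant H3K4me3 peaks. Counts over both ends of Dppa4 depended on the setting. Windows of 2 kb held 3 water and 1 mutant H3K4me3 peaks as deposited, and windows of 5 kb held 3 and 4. Merging of peaks less than 1 kb apart left 1 in each condition within 2 kb. The merged mutant peak ended at 48290476, and the next mutant peak began 6125 bp further on. The last end therefore still had a water peak and no mutant peak within 2 kb.

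By covered share, the order of the marks was not the same at both genes. Dppa2 was covered fully by both marks in water embryos, and in mutant embryos for 74.9% by H3K27ac and 50.4% by H3K4me3. Dppa4 had more H3K4me3 than H3K27ac in both conditions, with 91.3% and 75.2% in water and 55.4% and 47.7% in mutant embryos. In windows of 2 kb at the gene ends, both genes had a narrower widest H3K27ac peak after the mutant mRNA, as had 67.2% of coding genes with such a peak in both conditions. The widest water peak at the ends of both genes is the same domain of 46683 bp, so this is 1 peak counted at both. Their widest H3K4me3 peaks were narrower too, as at 37.4% of coding genes. At the ends of Dppa2, H3K27ac peaks numbered 1 in water and 4 in mutant embryos, and 23.8% of coding genes with such a peak in water had more in mutant embryos. Merging of peaks less than 1 kb apart left 1 at Dppa2 in both conditions, and common limits on gap and width left 1 and 2. At the ends of Dppa4 they numbered 3 in both conditions as deposited.

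Around the genes the changes differed by side. In the 100 kb before Dppa4, H3K27ac coverage was nearly equal, with 29440 bp in water and 28938 bp in mutant embryos, whereas H3K4me3 covered 30886 bp in water and 16202 bp in mutant embryos. In that flank 68.7% of the water H3K27ac bases and 40.7% of the water H3K4me3 bases were also marked in mutant embryos. A water H3K4me3 peak of 3487 bp there had no mutant counterpart, and another of 7756 bp was covered by mutant peaks for 6.29% only. In the 100 kb after Dppa2 the order of the marks was turned, with 46.3% of the water H3K27ac bases and 73.0% of the water H3K4me3 bases kept. The flanks are not separate from the domains at the genes. The water domains over Dppa2 reached into the flank after it, to 48342107 (H3K27ac) and 48341536 (H3K4me3). The widest water peaks on Dppa4 likewise began in the flank before it.

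In the window, 5 of 14 water and 7 of 28 mutant H3K27ac peaks had no counterpart in the other condition. Unshared H3K27ac was common elsewhere too. Over chromosomes 1 to 19 and X, 43.0% of water H3K27ac bases were also marked in mutant embryos, and 44.0% of mutant bases in water. The far part of the flank after Dppa2 held the widest such peak of each condition. Water H3K27ac peaks of 8501 bp (48376572 to 48385072) and 2345 bp there were overlapped by no mutant H3K27ac peak, nor was a peak of 3445 bp nearer to Dppa2. The water H3K4me3 peak of 2925 bp inside the 8501 bp peak was kept whole, inside a mutant peak of 3192 bp that carried no mutant H3K27ac. A mutant H3K27ac peak of 10738 bp (48390956 to 48401693) lay where water embryos had a gap of 29915 bp between H3K27ac peaks. It was the widest mutant H3K27ac peak of the window, and it reached into Gm5485, a long noncoding RNA gene (48399453 to 48412416).

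Gm5485 had more coverage by both marks in the mutant lists. H3K27ac covered 0% of it in water and 17.3% in mutant embryos. H3K4me3 covered 58.5% with peaks of 3713 and 4813 bp in water, and 92.5% with peaks of 5708 and 7396 bp in mutant embryos. The gene lies on the minus strand, and the mutant H3K4me3 peak reached past its annotated start while the water peak ended before it. The RefSeq promoter table of GRCm38.p6 matched 1 of the 4 genes of the window, Gm5485, and not Dppa2, Dppa4 or the pseudogene Gm7204. The 300 bases from 250 before to 50 after the start, chr16:48412367-48412666, minus strand, are shown because the edge of the mutant H3K4me3 peak falls in them. Capitals mark the 93 bases inside that peak, and no peak of the other 3 lists reached the sequence.
Gm5485: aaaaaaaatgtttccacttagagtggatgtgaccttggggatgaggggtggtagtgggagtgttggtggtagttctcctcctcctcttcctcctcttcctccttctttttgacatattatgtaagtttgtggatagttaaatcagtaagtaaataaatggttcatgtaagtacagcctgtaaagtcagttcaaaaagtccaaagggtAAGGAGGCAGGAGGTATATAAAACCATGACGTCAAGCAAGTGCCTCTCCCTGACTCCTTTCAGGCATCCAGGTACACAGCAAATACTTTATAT

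The sequence had 1 CG dinucleotide, against a median of 7 over 32851 RefSeq promoters of this length, and 41.7% G and C, against a median of 52.7%. Searched on both strands, it held the letters TATAAA 2 times, first at position 224 from the 5′ end, 27 bases before the annotated start, and again on the opposite strand from position 294. These letters were found in 13.6% of all promoters. It did not hold GGGCGG, found in 35.7% of promoters on either strand. Nor did it hold CCAAT, found in 37.4%, or the letters TAATCC, found in 7.06%.

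The window as a whole was compared with the other windows of its length. For H3K27ac, 2944 windows had at least 10% coverage in water embryos, of which 69.8% had less in mutant embryos. Their median ratio of mutant to water coverage was 0.834 (quartiles 0.666 and 1.07), and the 0.840 of the Dppa2 and Dppa4 window lay near it, with 50.8% of windows at or below. For H3K4me3, 45.2% of 3312 such windows had less in mutant embryos and the median ratio was 1.03 (quartiles 0.860 and 1.25). The 0.727 of the locus lay low among them, with 13.0% at or below. Among windows with at least 40% water coverage, a limit chosen after the data were seen, 93.1% had less H3K27ac and 62.3% less H3K4me3 in mutant embryos, with median ratios of 0.748 and 0.948. Of these, 73.0% of 744 windows were at or below the locus for H3K27ac and 10.6% of 597 for H3K4me3. These windows were picked by water coverage alone, which favours less in mutant embryos. Picked by at least 10% mutant coverage instead, 52.0% of 3348 windows had less H3K27ac and 33.3% of 3830 less H3K4me3 in mutant embryos. With at least 40% mutant coverage, which the locus did not reach, these shares were 79.1% of 425 and 39.7% of 599, and the median ratios 0.836 and 1.04. Of these, 50.4% of the H3K27ac windows and 1.34% of the H3K4me3 windows were at or below the ratio of the locus. Picking by mutant coverage favours more in mutant embryos. As the locus is outside the 40% mutant class, these 2 shares give it no place there. In the 10% mutant class, which it reached, 36.0% of H3K27ac windows and 6.95% of H3K4me3 windows were at or below its ratio. The H3K4me3 ratio of the locus was lower than that of most windows picked by water coverage. The place of its H3K27ac ratio depended on the choice. The ratio of H3K27ac peak numbers, 2, was reached by 10.2% of the 744 windows dense in water embryos, whose median was 1.33.

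**Figure D4:**
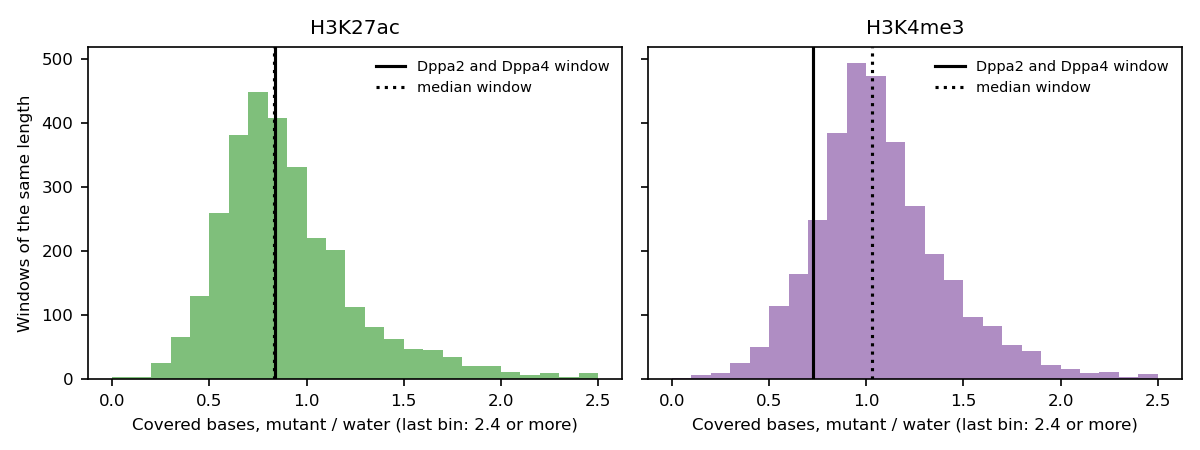
Number of windows of 235779 bp by their ratio of covered bases, mutant to water, for windows with at least 10% water coverage (2944 for H3K27ac, 3312 for H3K4me3). The locus (solid line) lies at 0.840 for H3K27ac, beside the median of 0.834 (dotted line), and at 0.727 for H3K4me3, left of the median of 1.03.

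The bases under both marks in the window numbered 77086 in water and 42651 in mutant embryos, a ratio of 0.553. They made up 74.0% of the H3K4me3 bases in water and 56.3% in mutant embryos. Over chromosomes 1 to 19 and X these shares were 52.8% and 36.1%. Among 1854 windows with at least 10% of bases under both marks in water embryos the median ratio was 0.646 (quartiles 0.480 and 0.831), and 35.1% were at or below the locus. Of the bases marked in water embryos, 57.2% of H3K27ac and 59.2% of H3K4me3 in the window were also marked in mutant embryos, against 43.0% and 57.7% over the chromosomes. Of the mutant bases, 68.2% and 81.5% had been marked in water embryos, against 44.0% and 53.0% over the chromosomes.

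Measured as the covered share of each gene with 25 kb on both sides, Dppa2 and Dppa4 stood high among coding genes in water embryos. Dppa2 had 89.6% for H3K27ac, rank 309 of 21631, and 83.9% for H3K4me3, rank 273. Dppa4 had 83.2% and 76.3%, ranks 630 and 667. Their surroundings overlap, so these values are not independent. In mutant embryos the H3K27ac values were 66.0% for Dppa2 and 66.8% for Dppa4, ranks 579 and 517. The H3K4me3 values were 60.0% and 50.9%, ranks 2296 and 3693. The rank thus moved far for H3K4me3 and little for H3K27ac. Of 4161 coding genes with at least 50% H3K27ac in water embryos, 90.9% had less in mutant embryos, with a median change of -20.6 percentage points, against -23.7 at Dppa2 and -16.4 at Dppa4. Of 3773 genes with at least 50% H3K4me3, 62.4% had less, with a median change of -3.62 points, against -23.95 at Dppa2 and -25.4 at Dppa4. Changes at least as low as that of Dppa2 were found in 7.42% of these 3773 genes, and as low as that of Dppa4 in 6.31%. This choice of genes by water coverage also favours less in mutant embryos. Of 2174 genes with at least 50% H3K27ac in mutant embryos, 65.3% had less there than in water, with a median change of -6.47 points. Of 3853 genes with at least 50% H3K4me3 in mutant embryos, 37.5% had less, with a median change of 4.09 points.

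The genes with the most similar values were found by the Euclidean distance, in percentage points, over the covered shares in the 4 lists, to the mean of Dppa2 and Dppa4. That mean was 86.4% and 66.4% for H3K27ac in water and mutant embryos and 80.1% and 55.4% for H3K4me3. The 5 closest genes more than 1 Mb away were Fam234a (distance 5.76), Eml3 (6.02), the translation initiation factor subunit gene Eif2b3 (6.04), the lipid kinase gene Pip5k1a (7.09) and the RNA helicase gene Dhx16 (7.46). Dppa2 and Dppa4 themselves each lay 6.75 from their mean. These 5 were picked for being closest.

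Genes known to act with or upstream of the DPPA2 and DPPA4 pair, or on Dux, were described by the same measures. All 15 listed genes had a gene-end peak of each mark in water embryos, as had 55.5% of all coding genes for H3K27ac and 75.6% for H3K4me3. In mutant embryos all 15 had an H3K4me3 peak and 13 an H3K27ac peak, against 73.7% and 58.7% of all coding genes. Of coding genes with a water H3K27ac peak 22.7% had none in mutant embryos, and of those with a water H3K4me3 peak 8.92%. The genes without a mutant H3K27ac peak within 2 kb of their ends were Smarca5, the ATPase of ISWI chromatin remodellers, and Kdm1a, a histone demethylase. Smarca5 had a widest water H3K27ac peak of 28811 bp, and its surroundings were covered for 49.4% in water and 19.6% in mutant embryos. At Kdm1a the widest water peak measured 9912 bp, but coverage of the gene with 25 kb on both sides was 28.4% in water and 40.8% in mutant embryos.

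The covered share of H3K27ac around these genes was lower in mutant embryos at 13 of 15, with a median change of -20.2 percentage points and a median water share of 64.6%. Coding genes with a water share of at least 50% were lower at 90.9%, with a median of -20.6 points, and those with a mutant share of at least 50% at 65.3%. Over all coding genes 50.2% were lower, the median change was -0.04 points and the median water share 12.5%. Dppa3, which protects maternal DNA methylation in the zygote, had 71.6% in water and 46.8% in mutant embryos. Its widest H3K27ac peak measured 26440 and 8781 bp, and its H3K4me3 peak 25873 and 10968 bp. Trim28, a corepressor of Dux, had H3K27ac peaks of up to 52398 bp in water and 8913 bp in mutant embryos. Its H3K4me3 share was 78.0% and 84.3%, higher in mutant embryos, unlike that of Dppa2 and Dppa4. H3K4me3 was lower at 7 and higher at 8 of the 15 genes, with a median change of 1.01 points from a median water share of 64.4%. Of coding genes with at least 50% H3K4me3 in water, 62.4% were lower, with a median of -3.62 points, and of all coding genes 40.5%, with a median of 0.33 points.

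The known targets were covered for a smaller share at the median than Dppa2 and Dppa4. Of 23 listed names 22 matched a RefSeq symbol. The name Dux had no match, and Duxf3, listed beside it, did. Their median covered H3K27ac share was 18.96% in water and 17.4% in mutant embryos, and their median H3K4me3 share 23.3% and 19.2%. Over all coding genes these medians were 12.5% and 14.1% for H3K27ac and 17.6% and 19.8% for H3K4me3. Gene by gene, H3K27ac was lower at 14 and higher at 8 targets, with a median change of -1.89 points. H3K4me3 was lower at 9 and higher at 11, with a median change of 0.28 points, so its group medians and its changes per gene differ in sign. In water embryos Tdpoz2, with 83.2% H3K4me3, was the one target at the level of the pair in that mark. The highest target for water H3K27ac was Tdpoz4 with 74.9%, below both genes of the pair. H3K27ac marked the ends of 19 of the 22 targets in water and 18 in mutant embryos, against the 55.5% and 58.7% of all coding genes. Tdpoz1 and Mael, a gene of the piRNA pathway, had it in water only, and the pseudogene Zscan4e in mutant only. Of coding genes unmarked in water embryos, 35.5% had H3K27ac in mutant embryos. H3K4me3 marked 17 and 19 targets, against 75.6% and 73.7% of all coding genes, in water only at Tdpoz1 and in mutant only at Zscan4c, Zscan4f and Usp17ld. Of coding genes unmarked in water, 20.1% had H3K4me3 in mutant embryos. Duxf3 had both marks in both conditions in peaks of 483 and 851 bp for H3K27ac and 1596 and 910 bp for H3K4me3. Most of these targets belong to families of near-identical copies, where reads of a copy can be placed at another, so calls at single copies are uncertain.

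By the covered share with 25 kb on both sides, less of both marks in mutant embryos was found at 6 of 22 targets and 7 of 15 partners and regulators, against 25.5% of all coding genes. The partners and regulators had median water shares of 64.6% (H3K27ac) and 64.4% (H3K4me3), against 12.5% and 17.6% over all coding genes. Of coding genes with at least 50% in water, 90.9% were lower for H3K27ac and 62.4% for H3K4me3. The share of such genes lower in both marks was not computed, so 7 of 15 cannot be called high. The partners and regulators lower in both marks were Cbx3, Chaf1a, Dppa3, Ncl, Setdb1, Trp53 and Zfp281. The targets were Tdpoz1, Tdpoz2, Zfp352, Usp17lc, Tcstv3 and Zscan4f, the last with a mutant H3K4me3 peak at a gene end but a share of 5.13% in water and 4.09% in mutant embryos. Tdpoz1 and its neighbour Tdpoz2 shared water peaks of 23212 bp (H3K27ac) and 26726 bp (H3K4me3). The H3K27ac share around Tdpoz1 was 70.1% in water and 13.5% in mutant embryos, and around Tdpoz2 70.4% and 21.3%. The H3K4me3 shares were 69.5% and 39.9% at Tdpoz1 and 83.2% and 51.5% at Tdpoz2. Zfp352, a zinc finger gene, had 57.7% and 24.8% for H3K27ac and 29.0% and 17.6% for H3K4me3. Tdpoz3 and Tdpoz4 had less H3K27ac in mutant embryos, with 34.1% and 25.7% at Tdpoz3 and 74.9% and 56.2% at Tdpoz4. Their H3K4me3 was higher in mutant embryos, with 26.2% and 35.5% at Tdpoz3 and 55.8% and 65.1% at Tdpoz4. The dependence of any target's peaks on the pair was not tested, since the lists hold no RNA or protein measurement of Dppa2 or Dppa4.

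**Figure D5:**
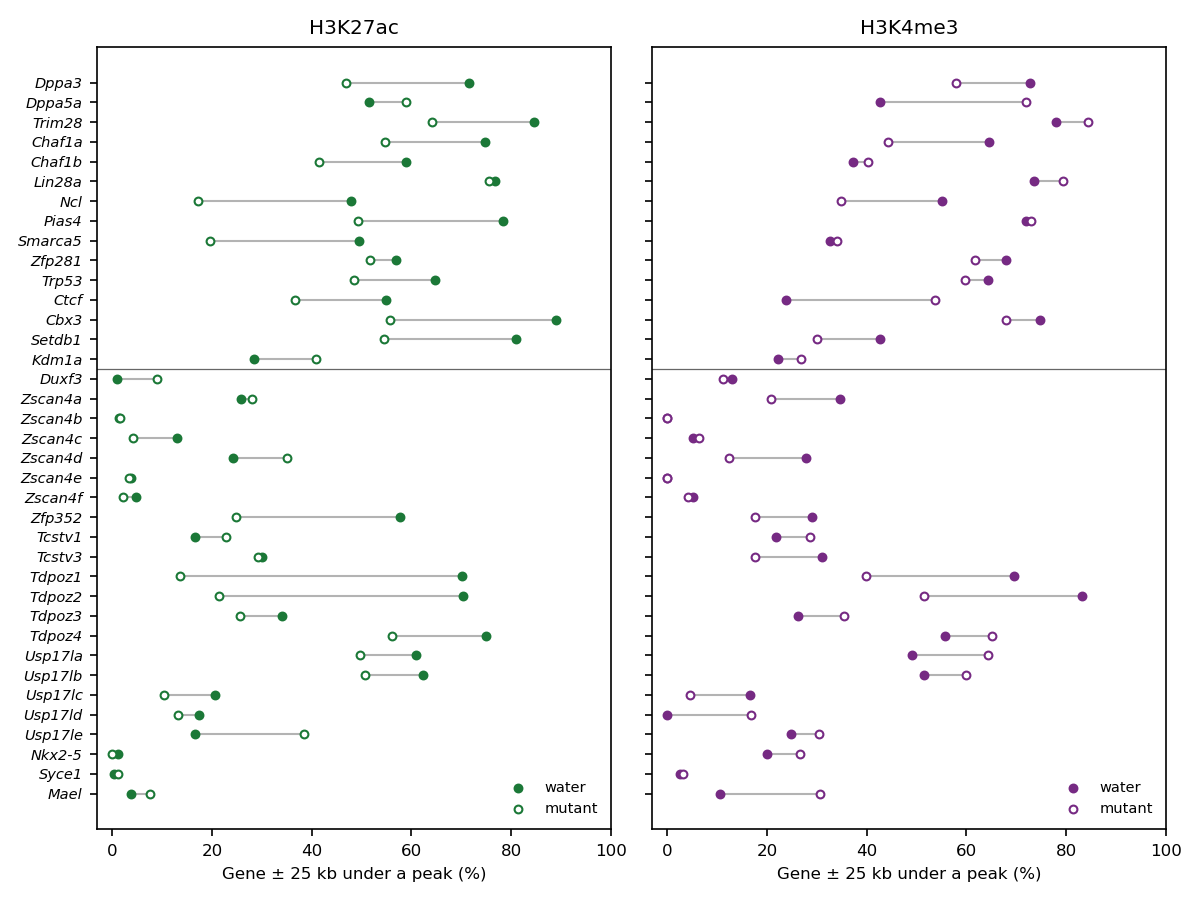
Covered share, in percent, of each gene with 25 kb on both sides in water (filled) and mutant embryos (open), for 15 partners and regulators (above the line) and 22 targets (below it). H3K27ac is lower in mutant embryos at 13 of 15 partners and regulators and 14 of 22 targets, against 50.2% of all coding genes and 90.9% of those with at least 50% in water. H3K4me3 is lower at 7 of 15 and 9 of 22, against 40.5% of all and 62.4% of those with at least 50%.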

How the data were processed

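The values used were the positions of peaks in 4 lists that the authors deposited, with chromosome, start and end and no score, signal or count. The submitters' processing notes name CASAVA, Trimmomatic, Bowtie2, SAMtools, Picard, MACS2 and deepTools and the builds mm10 and GRCm38, without settings. The 2 libraries of a group share 1 list per the labels, and pooling is not stated. Intervals were read as BED and printed 1-based. Covered bases were clipped to each region, and lists were compared by shared bases and by overlap of at least 1 bp. Gene positions came from RefSeq (GRCm38.p6), which gives no strand here, so gene ends are not start sites. Backgrounds were all coding genes, all water peaks of 20 kb or wider, and all windows of the same length. Interval functions (Python 3.11.15, numpy 2.4.6) were tested on simulated data. The genes named were the pair, the genes of the window, listed genes whose state differed, and the 5 most similar genes; the others named were chosen after their values were seen. The members and lists were chosen with earlier results of these data known.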

Additional observations from a re-analysis of the deposited data

How the results depend on the processing

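No paired analysis was possible because 1 list stands for the 2 libraries of a group, and for the same reason no replicate could be left out. Of 150 recomputed values, 136 stayed within 1.5 times the value as deposited and 14 did not. Merging peaks less than 1 kb apart gave 14 mutant H3K27ac peaks in the window, against 12 in water, and 4 over the Dppa2 domain. Common limits (peaks less than 750 bp apart merged, those under 200 bp dropped) gave 18 and 5. Merging below 2 kb, chosen after the data were seen, gave 11 and 2, and 10 water and 11 mutant H3K4me3 peaks. At the gene ends, also chosen after the data were seen, merging below 1 kb left 1 mutant H3K27ac peak at Dppa2 in place of 4 and 1 water H3K4me3 peak at Dppa4 in place of 3, and common limits left 2 mutant H3K27ac peaks at Dppa2. The 2-fold number of H3K27ac peaks therefore depends on gaps of under 1 kb. The window with flanks of 200 kb held 27 water and 41 mutant H3K27ac peaks. Windows of 5 kb at the ends of Dppa4 held 4 mutant H3K4me3 peaks in place of 1, and 3 in water as before. The median number of mutant peaks over water H3K4me3 domains of 38 kb or wider, a limit chosen after the data were seen, was 4 in place of 2. The ratio of covered bases stayed between 0.773 and 0.938 for H3K27ac and between 0.641 and 0.771 for H3K4me3 in all 7 alternatives. The depth of the libraries is unknown and limits every call of an absent peak.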
